A study of Mus musculus with 12 samples.

Results

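Described here are 10 mouse genes that encode fast-responding transcription factors: Jun, Junb and Jund of the Jun family, Fos, Fosb, Fosl1 and Fosl2 of the Fos family, and Atf3, Egr1 and Nr4a2. They were picked by symbol, and all 10 were found among 32285 rows of a retina count table and among 55401 rows of a count table of cells labelled brain microvascular pericytes. Bulk RNA of 12 samples from wild-type mice was counted per gene, in 4 groups of 3 libraries. The retina groups were optic nerve crush (ONC) with small extracellular vesicles (sEV) made by mesenchymal stem cells (MSC), labelled ONC+i.o.MSC.sEV, and crush with phosphate-buffered saline, labelled ONC+PBS, both at day 1. Both retina groups therefore carried the injury. The pericyte-labelled groups were given MSC.sEV or PBS and taken at 12 hours. The i.o. mark, which the labels do not spell out, stands only on the vesicle group of the retina. The mark P4 stands in the titles of the pericyte-labelled samples of both groups and is not spelled out either. It may mark an age or a culture passage, and ages are not otherwise given in the labels. Whether 3 libraries of one group stem from 3 animals or cultures is not stated either, so p-values measure the spread between libraries, which may be technical. The retina columns carry the short names CTR and M. They were taken by inference as the ONC+PBS group and the vesicle group, and the sign of each retina value depends on that. Were the CTR columns uninjured retina, the differences would include the crush.

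Jun and Fos proteins pair through leucine zippers to form AP-1, a DNA-binding dimer that carries signals from MAP kinases to gene promoters. Jun proteins can pair with each other or with a Fos protein, while Fos proteins need a Jun partner. Many of these genes are immediate early genes, switched on within minutes of a stimulus without new protein synthesis, and their mRNAs decay fast. In the retina, Jun and Atf3 are known as genes that ganglion cells switch on after their axons are damaged. In vascular, glial and myeloid cells, Junb, Fosl1, Fosl2 and Atf3 are known as genes that cytokines and stress signals raise.

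Promoter sequences of 4 members follow, the 250 bases before and 50 after the start in RefSeq, build GRCm38.p6, given on the strand of the gene. Junb, Atf3 and Fosl2 are shown as 3 of the 4 members with matched promoters whose mRNA was higher with vesicles in both tables, those whose effects also differed between the tables. Jun, the other one, is not shown and holds no TGACG in its window. Fos is shown because its mRNA was called in neither. Capitals mark the letters TGACG or their reverse complement, the core of the cyclic AMP response element (CRE) that ATF and CREB proteins bind.
Junb, chr8:84978699-84978998, minus strand: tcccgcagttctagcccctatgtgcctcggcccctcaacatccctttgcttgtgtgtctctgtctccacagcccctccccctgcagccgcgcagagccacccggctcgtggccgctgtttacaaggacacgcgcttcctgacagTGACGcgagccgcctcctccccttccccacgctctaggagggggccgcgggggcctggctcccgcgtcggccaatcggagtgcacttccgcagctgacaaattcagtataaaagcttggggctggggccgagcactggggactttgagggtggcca
Atf3, chr1:191183284-191183583, minus strand: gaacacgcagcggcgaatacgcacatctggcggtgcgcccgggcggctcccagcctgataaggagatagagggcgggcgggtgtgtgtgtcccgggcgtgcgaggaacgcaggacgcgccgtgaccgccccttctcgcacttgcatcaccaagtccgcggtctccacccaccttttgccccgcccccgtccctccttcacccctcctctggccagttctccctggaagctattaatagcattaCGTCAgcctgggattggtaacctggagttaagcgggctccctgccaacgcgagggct
Fosl2, chr5:32136222-32136521, plus strand: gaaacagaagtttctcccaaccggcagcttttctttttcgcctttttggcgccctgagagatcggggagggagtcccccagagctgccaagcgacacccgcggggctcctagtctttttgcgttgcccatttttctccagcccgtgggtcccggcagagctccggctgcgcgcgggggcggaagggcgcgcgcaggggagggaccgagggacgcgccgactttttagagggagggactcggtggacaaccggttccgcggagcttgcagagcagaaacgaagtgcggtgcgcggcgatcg
Fos, chr12:85473640-85473939, plus strand: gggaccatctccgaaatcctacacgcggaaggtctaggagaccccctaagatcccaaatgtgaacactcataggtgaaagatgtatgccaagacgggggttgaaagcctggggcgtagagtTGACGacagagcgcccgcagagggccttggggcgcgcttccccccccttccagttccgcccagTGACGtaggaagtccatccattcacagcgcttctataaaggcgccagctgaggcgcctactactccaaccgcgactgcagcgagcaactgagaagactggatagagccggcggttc

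RefSeq promoters were used for 8 of the 10 members. None was found for Fosl1 and none was used for Egr1, so the motif counts do not cover these genes. On either strand, TGACG stood in 5 of these 8 windows (Atf3, Fos, Fosb, Junb and Nr4a2), against 20.8% of all 32851 promoters of this length. In Fos it lay at 129 and 66 bases before the start, in Junb at 106 and in Atf3 at 7 bases before it. A kB motif, the kind of site that NF-kB binds, matched in Fos, Fosb and Fosl2, against 4.51% of all promoters. The full CRE (TGACGTCA), the AP-1 site (TGANTCA), the STAT motif (TTCNNNGAA), the Egr site (GCGTGGGCG) and the CArG box matched in 0 of the 8 windows, against 1.79%, 7.81%, 8.3%, 0.612% and 1.63% of all promoters. These matches describe letters in the windows only.

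Total counts ran from 15665800 to 16842926 in vesicle retinas and from 15580024 to 16264189 in PBS retinas, and from 34580643 to 37492365 and from 33001248 to 37954077 in the vesicle and PBS pericyte-labelled libraries. Levels are in CPM, the count scaled to a common library total with TMM factors within a table, and a count of 3 in 1 library came to at most 0.196 CPM in the retina and 0.0895 CPM in the other table. The 2 tables count over different gene sets, so no level was compared across them. Retina libraries held 70627 to 85344 CPM of 9 rod marker mRNAs with vesicles and 105505 to 112537 CPM with PBS. Lens markers varied between retina libraries of the same group, from 104 to 75757 CPM with vesicles and from 555 to 6415 CPM with PBS. In the pericyte-labelled cultures 10 pericyte and mural cell markers summed to 702 to 717 CPM with vesicles and 672 to 715 CPM with PBS. Most of it was Acta2, at a mean of 587 CPM with vesicles and 572 CPM with PBS, and Pdgfrb averaged 70.8 CPM with vesicles and 59.7 CPM with PBS. Cspg4, Notch3, Mcam, Anpep and Vtn lay between 3.93 and 25.0 CPM in both group means, and Rgs5, Kcnj8 and Abcc9 at or under 0.891 CPM. Olig1, a gene of the oligodendrocyte lineage, averaged 150 CPM with vesicles and 208 CPM with PBS. Summed CPM with vesicles and with PBS was 220 to 259 and 300 to 313 for 7 oligodendrocyte lineage markers. It was 1151 to 1204 and 1120 to 1123 for 5 astrocyte markers. For 7 Mueller glia markers it was 2414 to 2435 and 2406 to 2478. For 6 fibroblast markers it was 476 to 508 and 505 to 548, and for 7 microglia markers 173 to 190 and 185 to 196. The lists differ in genes, so their sums do not rank cell types. In such bulk samples, fewer cells of a type and less RNA per cell cannot be told apart.

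In the crushed retina, 5 of the 9 members tested were higher with vesicles and 0 were lower. Junb, Atf3, Fosl2, Fosb and Jun were called, and Fos, Jund, Egr1 and Nr4a2 were not. A call is a Benjamini-Hochberg adjusted p under 0.05 in edgeR's quasi-likelihood test over all genes of the table. Of all 15440 genes tested there, 15.9% were called, 10.7% higher and 5.19% lower. The median log2 fold change was 0.86 over the 9 members tested and -0.02 over all genes. Groups did not overlap for 6 of the 9 members tested, all 6 higher with vesicles, against 35.7% of all genes tested (19.5% higher and 16.2% lower).

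Junb, the Jun protein that dimerises well with Fos proteins but activates many AP-1 genes more weakly than Jun does, changed most within its family in the retina. It stood at 159, 140 and 94.2 CPM with vesicles and at 20.8, 18.4 and 25.4 CPM with PBS. Every vesicle library lay above every PBS library, and the fitted change was 6.08-fold (log2 fold change 2.60 ± 0.22 SE, adjusted p = 0.00040). Jun, the strongest activator of the family, stood at 35.4, 39.9 and 29.6 CPM with vesicles and at 15.4, 19.3 and 23.2 CPM with PBS. These groups did not overlap either, with a smaller change (log2 fold change 0.86 ± 0.17, adjusted p = 0.0089). Jund, the member that is made steadily in many resting cells, stood at 29.2, 24.7 and 18.5 CPM with vesicles and at 22.8, 32.2 and 30.3 CPM with PBS, and its groups overlapped (log2 fold change -0.24 ± 0.19, adjusted p = 0.44).

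Because a ratio of 2 genes within a library does not depend on the scaling of that library, Junb was also set against Jund after dividing each by its exon length. The ratio was 3.94, 4.11 and 3.69 in vesicle retinas and 0.663, 0.415 and 0.606 in PBS retinas. Junb mRNA was thus above Jund mRNA in all 3 vesicle libraries and below it in all 3 PBS libraries on the length-scaled count. Jun over Jund was 0.632, 0.844 and 0.837 with vesicles and 0.354, 0.314 and 0.400 with PBS, below 1 in every retina library.

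Among the Fos family in the retina, Fosl2 and Fosb were called and Fos was not. Fosl2, which encodes Fra-2, a Fos protein without the strong activation domain of Fos, stood at 16.9, 29.96 and 13.7 CPM with vesicles and at 1.89, 1.64 and 5.47 CPM with PBS. All vesicle libraries were higher, but both groups were wide, and the log2 fold change of 2.74 ± 0.55 came with adjusted p = 0.022. The call of Fosl2 was lost without vesicle library 1, PBS library 1 or PBS library 2 (adjusted p = 0.060, 0.077 and 0.071), with no filter on low counts (0.071) and without the lens-richest library of each group (0.097). Without PBS library 3 its log2 fold change was 3.50. Fosb stood at 6.24, 6.51 and 4.82 CPM with vesicles and at 1.63, 1.58 and 2.40 CPM with PBS, with no overlap (log2 fold change 1.64 ± 0.28, adjusted p = 0.0045).

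Fos itself stood at 21.3, 21.0 and 20.8 CPM in vesicle retinas and at 11.4, 19.9 and 15.3 CPM in PBS retinas. The vesicle libraries were nearly level and just above the highest PBS library, and the change was not called (log2 fold change 0.44 ± 0.19, adjusted p = 0.15). Fosl1, which encodes Fra-1, was too scarce in the retina to be tested. It had 2, 4 and 3 counts with vesicles and 0, 1 and 0 counts with PBS, a ratio of 9.13 with a 95% exact counting interval from 1.27 to 400.3.

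Atf3, a stress-induced factor of the ATF/CREB family that can pair with Jun proteins, had the smallest p of the members in the retina and ranked 19 by p among all genes tested. It stood at 56.3, 57.7 and 39.9 CPM with vesicles and at 9.79, 9.12 and 7.45 CPM with PBS. Each vesicle library was well above every PBS library, 5.84-fold in the fit (log2 fold change 2.54 ± 0.18, adjusted p = 5.9e-05). Egr1, a zinc finger factor that growth factors and neuronal activity switch on, stood at 8.92, 12.1 and 6.11 CPM with vesicles and at 6.005, 14.2 and 12.3 CPM with PBS. Nr4a2, an orphan nuclear receptor also called Nurr1, stood at 1.66, 2.66 and 1.48 CPM with vesicles and at 2.68, 2.37 and 2.34 CPM with PBS. Both sets of groups overlapped, and neither gene was called (log2 fold change -0.26 ± 0.36 with adjusted p = 0.66 for Egr1, and -0.35 ± 0.33 with adjusted p = 0.51 for Nr4a2).

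**Figure D1:**
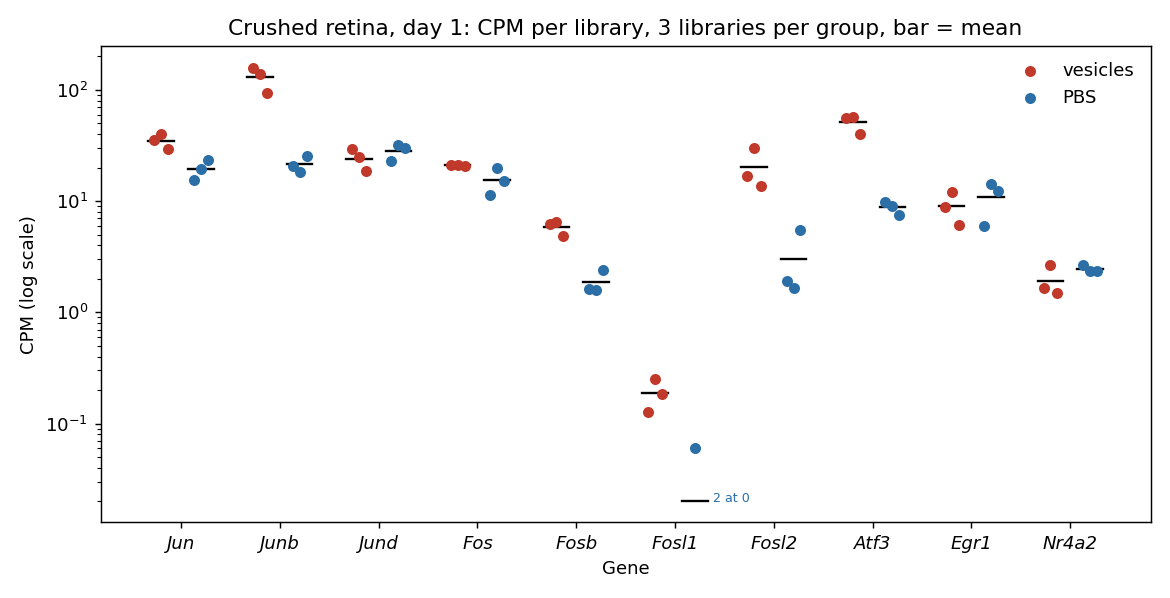
CPM of the 10 genes in each retina library on a log axis, vesicles in red left of PBS in blue, with 3 libraries per group and a bar at the group mean. Junb, Atf3, Fosl2, Fosb and Jun show no overlap and were called higher with vesicles, while Jund, Egr1 and Nr4a2 overlap. Libraries at 0 are written beside the Fosl1 points.

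Markers of immune cells moved with the same retina libraries. All 10 leukocyte and myeloid markers were called higher with vesicles, their summed level running from 719 to 1091 CPM with vesicles and from 80.6 to 112 CPM with PBS. All 8 neutrophil markers were higher too, from 386 to 829 CPM with vesicles and from 7.42 to 21.4 CPM with PBS, and each of these markers had counts in both groups, though Retnlg and Ly6g were at 0 in a PBS library. Without the lens-richest library of each group 5 of the neutrophil markers were called higher. Of 7 microglia markers 4 were lower and 0 higher, and of 9 rod markers 6 were lower and 0 higher. Of 6 cone markers 4 were lower, of 6 bipolar cell markers 5 and of 8 ganglion cell markers 1, with 0 higher. Over 13 alternatives these lower counts ran from 2 to 5, from 1 to 5 and from 0 to 3. Ganglion cell markers summed to 717 to 1044 CPM with vesicles and 957 to 1210 CPM with PBS, which overlap. Of all genes tested there, 10.7% were higher and 5.19% lower. The part of these cell types in the levels of Junb, Atf3, Fosl2, Fosb and Jun was not tested.

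In the pericyte-labelled cells, 6 of the 10 members were higher with vesicles and Nr4a2 was lower. Junb, Jun, Jund, Fosl1, Fosl2 and Atf3 were called higher, and Fos, Fosb and Egr1 were not called. Of all 16975 genes tested among the cultures, 19.8% were called, 10.9% higher and 8.9% lower. The median log2 fold change was 0.39 over the 10 members and 0.00 over all genes, and groups did not overlap for 7 members, 6 of them higher, against 33.8% of all genes (17.4% higher and 16.4% lower). Neutrophil markers were nearly absent there, with 4 of 8 at 0 in all 6 libraries and a summed level from 0.835 to 1.09 CPM with vesicles and from 1.22 to 2.11 CPM with PBS, of which G0s2 was called lower. Of 10 leukocyte and myeloid markers, Ptprc and Spi1 were higher and 0 were lower, and their summed level ran from 92.9 to 147 CPM with vesicles and from 86.3 to 93.2 CPM with PBS. Those 2 became 1 without vesicle library 1 or 2 or PBS library 2 or 3 and 4 without vesicle library 3, and 1 marker was lower without vesicle library 1. The G0s2 call was lost in 7 of 14 alternatives, 4 of them leaving out vesicle library 1 or 3 or PBS library 2 or 3. Their part in the members' levels was not tested.

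All 3 Jun genes were higher in these cells. Junb stood at 455, 395 and 494 CPM with vesicles and at 220, 178 and 251.3 CPM with PBS, with no overlap and a 2.07-fold change (log2 fold change 1.05 ± 0.13, adjusted p = 0.00045). That call was lost without vesicle library 1 (adjusted p = 0.064), at a log2 fold change of 1.04. Jun stood at 109, 108 and 130 CPM with vesicles and at 81.0, 77.0 and 95.6 CPM with PBS (log2 fold change 0.45 ± 0.08, adjusted p = 0.00024). Jund stood at 71.2, 69.0 and 64.6 CPM with vesicles and at 55.9, 58.9 and 57.0 CPM with PBS. Its libraries were tight within each group, and a change of 1.19-fold was called (log2 fold change 0.25 ± 0.06, adjusted p = 0.0066).

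The 4 Fos genes split into a pair that was called and a pair that was not. Fosl1 stood at 7.31, 4.76 and 5.41 CPM with vesicles and at 2.65, 1.49 and 1.97 CPM with PBS (log2 fold change 1.51 ± 0.23, adjusted p = 4.5e-05). Fosl2 stood at 106, 92.2 and 108 CPM with vesicles and at 69.8, 57.8 and 60.5 CPM with PBS (log2 fold change 0.70 ± 0.08, adjusted p = 5.1e-07). For both genes every vesicle library was above every PBS library. Fos stood at 219, 198 and 369 CPM with vesicles and at 263, 220 and 387 CPM with PBS (log2 fold change -0.15 ± 0.37, adjusted p = 0.86). Fosb stood at 14.4, 8.29 and 23.7 CPM with vesicles and at 16.4, 9.42 and 21.8 CPM with PBS (log2 fold change -0.04 ± 0.53, adjusted p = 0.97). Their groups overlapped almost completely.

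Atf3 stood at 9.22, 8.78 and 10.5 CPM with vesicles and at 5.99, 4.10 and 4.75 CPM with PBS, without overlap (log2 fold change 0.94 ± 0.16, adjusted p = 0.00012). Nr4a2 was the only member called lower in either table. It stood at 3.997, 2.41 and 2.77 CPM with vesicles and at 7.21, 5.35 and 5.59 CPM with PBS, so that every vesicle library was below every PBS library (log2 fold change -0.99 ± 0.20, adjusted p = 0.0011). Egr1 stood at 295, 311 and 518 CPM with vesicles and at 259, 241 and 396 CPM with PBS. Library 3 stood high in both groups, the groups overlapped, and the change was not called (log2 fold change 0.33 ± 0.34, adjusted p = 0.63). With the library number as a replicate block, Egr1 was called higher (log2 fold change 0.32 ± 0.063, adjusted p = 0.00059). Fos and Fosb were not called with that block. Whether same-numbered libraries share a culture or batch is not stated, and over all genes their deviations correlated at 0.018, 0.027 and -0.024.

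**Figure D2:**
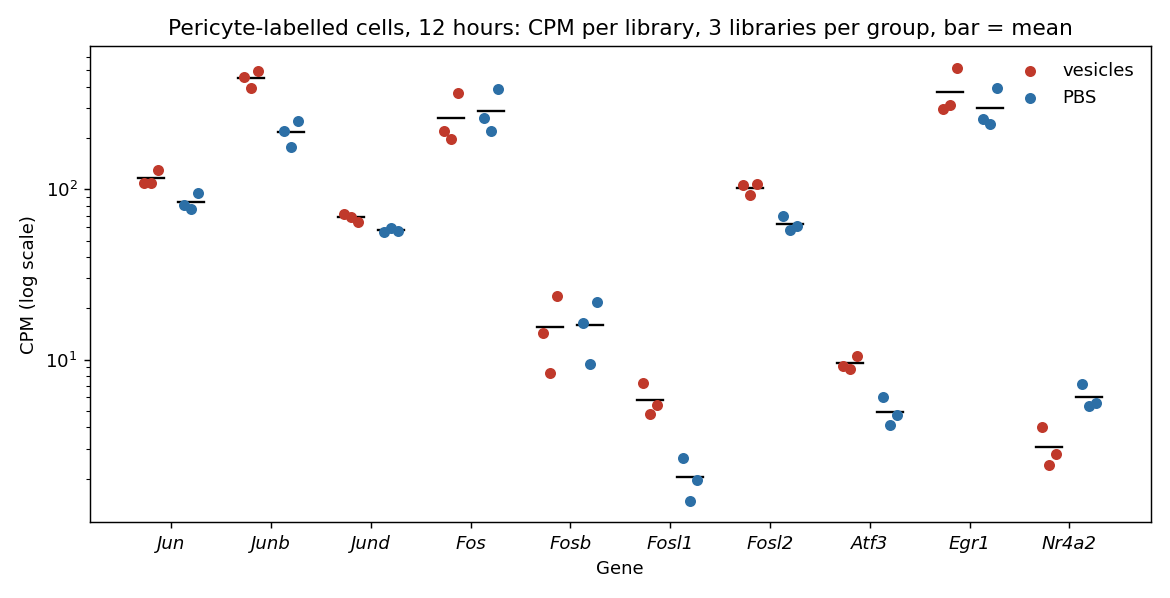
CPM of the 10 genes in each pericyte-labelled library on a log axis, vesicles in red left of PBS in blue, with 3 libraries per group and a bar at the group mean. Groups are apart for 7 genes, with Nr4a2 lower with vesicles and the other 6 higher, and they overlap for Fos, Fosb and Egr1.

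Fos, Fosb and Egr1, the 3 genes not called in these cells, shared a pattern over the libraries. Library 3 was the highest of its group for each of them, with vesicles and with PBS. Jun and Junb were also highest in library 3 of each group, while Jund and Nr4a2 were not. With both libraries numbered 3 left out, an alternative chosen after the data were seen, Egr1 was called higher (log2 fold change 0.27 ± 0.08, adjusted p = 0.033) and Fos and Fosb were still not called. Within each library the length-scaled ratio of Egr1 to Fos was 0.706, 0.826 and 0.737 with vesicles and 0.516, 0.576 and 0.536 with PBS. On this ratio, which does not depend on the scaling of a library, the groups did not overlap. Groups were also apart for 33.8% of all single genes tested there, and no test was run on the ratio. In the retina the same ratio was 0.220, 0.303 and 0.154 with vesicles and 0.277, 0.375 and 0.423 with PBS, where the groups overlapped.

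**Figure D3:**
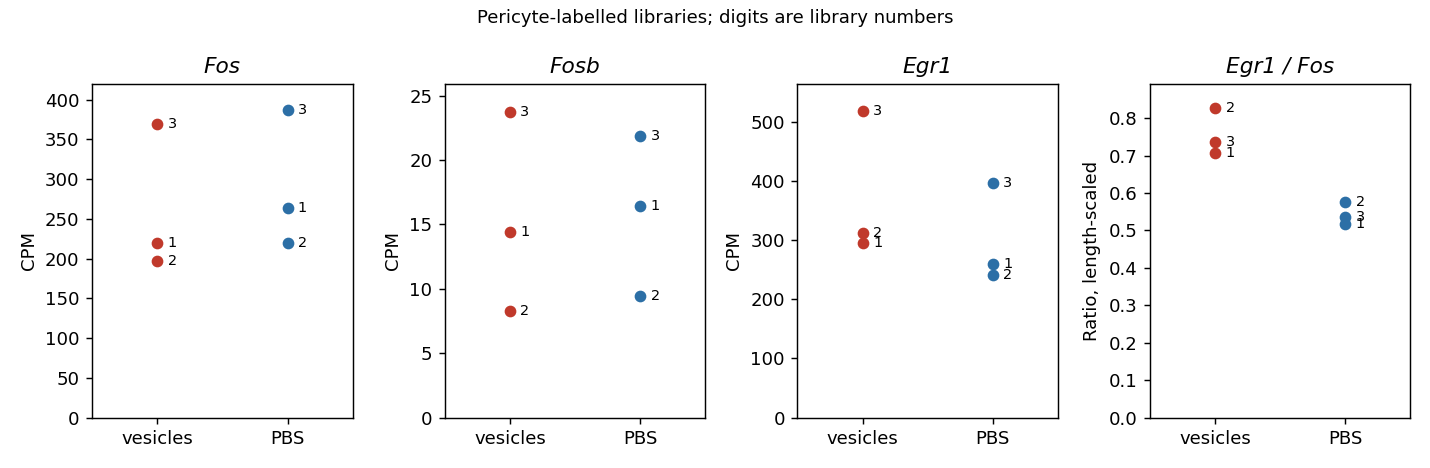
Fos, Fosb and Egr1 in CPM and the length-scaled ratio of Egr1 to Fos in the pericyte-labelled libraries, vesicles in red left of PBS in blue, each point marked with its library number. Library 3 is the highest of both groups for the 3 genes, and the ratio lies between 0.706 and 0.826 with vesicles and between 0.516 and 0.576 with PBS.

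The vesicle effects in the 2 settings were compared with limma over the 13712 genes tested in both tables, of which 12% had effects that differed at adjusted p under 0.05, 7.58% with a higher and 4.44% with a lower effect in the retina. Of the 9 members in that test, Atf3, Junb and Fosl2 differed, each with the larger rise in the retina. The retina effect minus the pericyte effect was 1.59 ± 0.28 on the log2 scale for Atf3 (adjusted p = 0.0017), 1.52 ± 0.28 for Junb (adjusted p = 0.0022) and 2.16 ± 0.50 for Fosl2 (adjusted p = 0.0095). Without PBS library 2 of the retina the difference of Fosl2 was not called (adjusted p = 0.070). Jund, not called in the retina and called higher in the pericyte-labelled cells, had a difference of -0.50 ± 0.18 that missed the threshold (adjusted p = 0.084) and passed it without PBS library 1 of the retina (adjusted p = 0.023). Jun and Fos had differences of 0.40 ± 0.22 (adjusted p = 0.28) and 0.63 ± 0.53 (adjusted p = 0.51), and Fosl1 could not be tested. For Fosb the difference was 1.74 ± 1.12 (adjusted p = 0.36), for Egr1 -0.56 ± 0.68 (adjusted p = 0.67) and for Nr4a2 0.63 ± 0.47 (adjusted p = 0.44), so a call in one table only is not shown to be a difference between them. Tissue, time after treatment and table differed together, so their parts cannot be told apart.

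**Figure D4:**
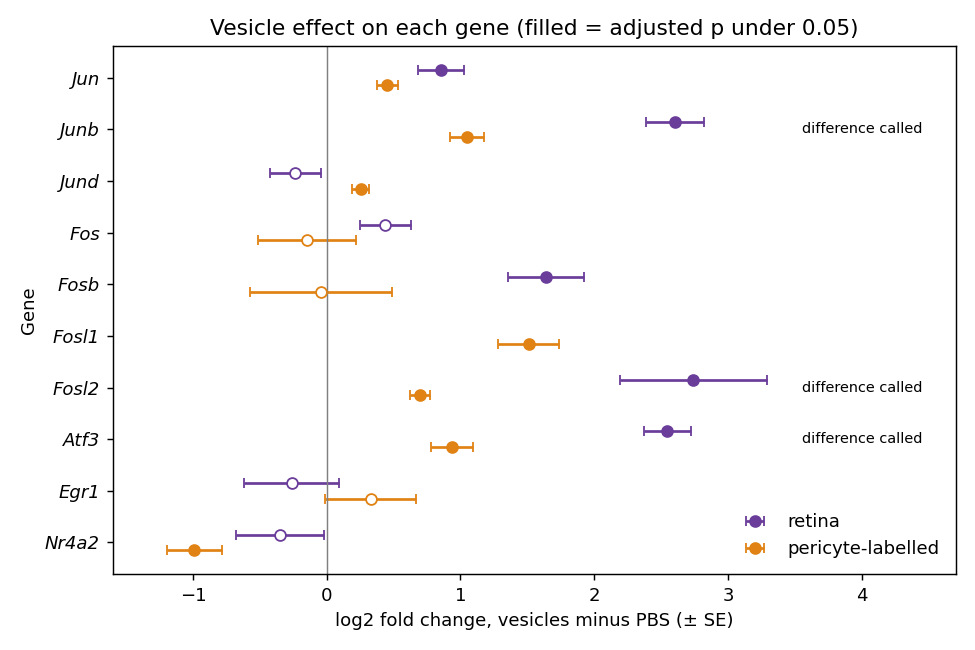
Log2 fold change, vesicles minus PBS, with its standard error for each gene in retina (purple) and pericyte-labelled cells (orange), filled where adjusted p was under 0.05. Junb, Fosl2 and Atf3 are marked because their effects differed between the tables. Fosl1 has no retina point because it was too scarce to be tested.

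On counts divided by exon length, the make-up of the Jun family differed between the groups of both tables. In the retina Junb made up 68.8 ± 1.98% of the 3 Jun mRNAs with vesicles and 29.0 ± 4.54% with PBS (SD, n = 3 each). Jund made up 17.6 ± 0.717% with vesicles and 52.4 ± 4.67% with PBS. In the pericyte-labelled cells Junb made up 71.5 ± 1.80% with vesicles and 60.4 ± 3.46% with PBS. For each of these 3 shares the lowest library of the higher group was above the highest of the lower group. Fos was the most abundant Fos mRNA in every library of both tables, at 74.5 ± 6.13% with vesicles and 91.2 ± 3.85% with PBS in the retina and at 87.0 ± 2.65% and 92.2 ± 1.501% in the pericyte-labelled cells. Fosl2 made up 16.97 ± 5.72% with vesicles and 4.40 ± 2.91% with PBS in the retina. Over all 10 members on the same length-scaled CPM, Jund was highest in PBS retinas (17.04 ± 2.98 CPM per kilobase), above Junb at 9.36 ± 1.53, with no overlap between them. In vesicle retinas Junb was highest (56.9 ± 14.4 CPM per kilobase), above Atf3 at 23.8 ± 4.57, again with no overlap. In vesicle pericyte-labelled cells Junb led with 195 ± 21.6 CPM per kilobase, and in PBS cells Fos was highest at 123 ± 36.9, overlapping with Junb at 94.0 ± 16.0.

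**Figure D5:**
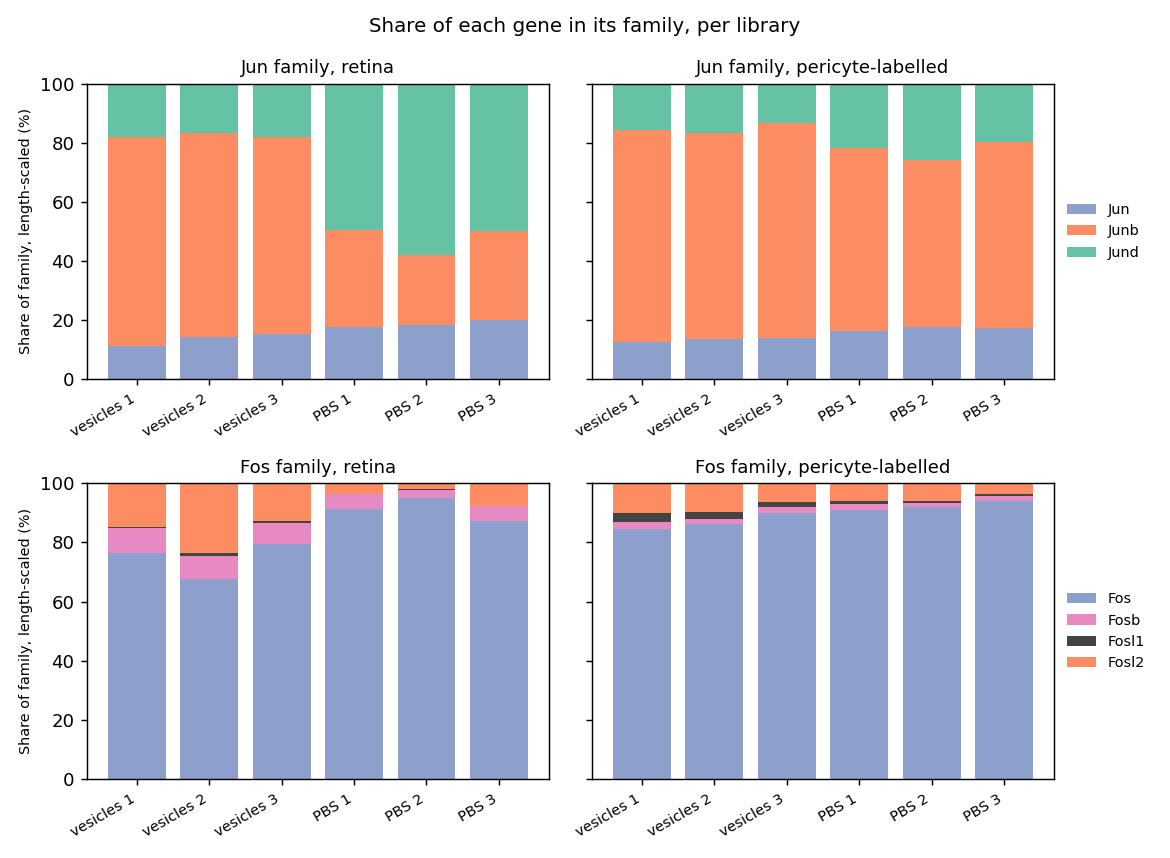
Share in percent of each Jun gene (top) and each Fos gene (bottom) in its family after dividing counts by exon length, one bar per library, vesicles left of PBS, with retina on the left and pericyte-labelled cells on the right. Junb fills 66.7 to 70.7% of the Jun family in vesicle retinas and 24.0 to 32.9% in PBS retinas.

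Partners and relatives of the AP-1 proteins were read from a list of 16 bZIP genes. In the retina 7 of 14 tested were higher and 0 lower (median log2 fold change 0.63), against 10.7% and 5.19% of all genes tested. Batf, a partner of Jun proteins in leukocytes, averaged 4.27 ± 0.320 CPM with vesicles and 0.207 ± 0.128 CPM with PBS (log2 fold change 4.32 ± 0.45, adjusted p = 0.00036). Its PBS mean rests on 10 counts. Maff, a small Maf protein, averaged 12.4 ± 3.19 CPM with vesicles and 1.28 ± 0.203 CPM with PBS. Crem, a cyclic AMP responsive factor, averaged 65.5 ± 2.60 CPM with vesicles and 32.5 ± 4.23 CPM with PBS. The count fell to 3 higher without vesicle library 1, vesicle library 2 or PBS library 2, and to 4 without the lens-richest libraries, and 1 gene was lower in 4 of 13 alternatives. In the pericyte-labelled cells 4 of 14 were higher and 2 lower (median 0.13), against 10.9% and 8.9% of all genes tested. The small Maf genes Maff, Mafg and Mafk were higher, Maff at 43.2 ± 4.92 CPM with vesicles and 17.5 ± 4.92 CPM with PBS, while Maf itself, a large Maf protein, was lower at 25.4 ± 2.86 CPM with vesicles and 39.2 ± 1.71 CPM with PBS (log2 fold change -0.62 ± 0.09, adjusted p = 1.6e-05). The lower count was 1 without vesicle library 2 or PBS library 3.

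Of 24 other immediate early genes, 12 of 23 tested were higher in the retina and 0 lower (median log2 fold change 0.80). Shares of all genes tested were 10.7% and 5.19%. Gadd45b, a stress sensor upstream of MAP kinases, averaged 105 ± 22.7 CPM with vesicles and 12.6 ± 5.04 CPM with PBS (log2 fold change 3.06 ± 0.35, adjusted p = 0.0037). Egr2, a close relative of Egr1, averaged 3.91 ± 1.26 CPM with vesicles and 0.151 ± 0.211 CPM with PBS (log2 fold change 4.67 ± 0.72, adjusted p = 0.0032). Its PBS mean rests on 7 counts, with a library at 0, and lies under the CPM of 3 counts, so the size of the change is uncertain. The Egr2 value ran from 4.10 without PBS library 2 to 6.69 without PBS library 1, and was called in every alternative. Ier3 averaged 158 ± 6.53 CPM with vesicles and 79.2 ± 3.29 CPM with PBS. The count was 7 without PBS library 2 and 6 without the lens-richest libraries. In the pericyte-labelled cells 10 of 24 were higher and 0 lower (median 0.45), against 10.9% and 8.9% of all genes tested. With the library number as a replicate block 18 were higher. Gadd45b averaged 51.4 ± 1.54 CPM with vesicles and 13.3 ± 3.68 CPM with PBS (log2 fold change 1.94 ± 0.16, adjusted p = 3.7e-06). Klf6, a zinc finger factor, averaged 147 ± 13.1 CPM with vesicles and 82.5 ± 9.66 CPM with PBS. Nab1, a corepressor that binds Egr proteins, averaged 65.9 ± 2.56 CPM with vesicles and 45.3 ± 0.342 CPM with PBS.

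A list of 20 genes held the MAP kinase and serum response factor inputs to these promoters. In the retina 3 of 20 were higher and 0 lower (median 0.07), against 10.7% and 5.19% of all genes tested. In the pericyte-labelled cells 3 of 20 were higher and 2 lower (median -0.02), against 10.9% and 8.9% of all genes tested. These counts were near those shares. Map3k8, a kinase that activates the ERK pathway, was higher in both tables. It averaged 10.3 ± 2.59 CPM with vesicles and 2.08 ± 0.413 CPM with PBS in the retina (log2 fold change 2.31 ± 0.27, adjusted p = 0.00068), and 12.8 ± 0.732 CPM with vesicles and 3.48 ± 0.652 CPM with PBS in the pericyte-labelled cells (log2 fold change 1.87 ± 0.15, adjusted p = 6.1e-09). Map2k6, a kinase of the p38 pathway, was lower in the pericyte-labelled cells, at 4.50 ± 0.838 CPM with vesicles and 9.18 ± 1.44 CPM with PBS. Among these cells the count of higher genes was 1 without vesicle library 2 or 3 or PBS library 2 or 3, and that of lower genes was 4 without vesicle library 1. Scaled by total counts only, 1 was higher and 4 were lower there. In the retina DESeq2 called 5 higher and 1 lower.

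A list of 16 genes that textbooks give as AP-1 targets was also read. Like the other lists it was chosen with earlier results of these data known, so its counts are not independent of them. In the retina 10 of 15 tested were higher and 0 lower (median 2.12), against 10.7% and 5.19% of all genes tested. In the pericyte-labelled cells 12 of 16 were higher and 0 lower (median 1.20), against 10.9% and 8.9% of all genes tested. Timp1, an inhibitor of matrix metalloproteinases, averaged 551 ± 205 CPM with vesicles and 5.26 ± 0.863 CPM with PBS in the retina (log2 fold change 6.71 ± 0.38, adjusted p = 0.00029). Lif, a cytokine of the interleukin-6 family, averaged 7.58 ± 1.78 CPM with vesicles and 0.377 ± 0.185 CPM with PBS in the retina, and 23.5 ± 3.03 CPM and 4.40 ± 0.390 CPM in the pericyte-labelled cells. Plaur, the receptor of urokinase, averaged 53.0 ± 5.68 CPM with vesicles and 16.3 ± 2.37 CPM with PBS in the pericyte-labelled cells (log2 fold change 1.70 ± 0.10, adjusted p = 4.2e-11). Other pathways also control these genes, and no test tied their levels to the AP-1 members.

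Profiles over the 6 libraries were compared by Euclidean distance on the centred log2 of CPM plus 0.5, which shrinks the changes of scarce genes. Closest to Atf3 were Rab32, Il17ra and Atp8b4 in the retina (distance 0.277, 0.315 and 0.360) and Klf6, Klf4 and Gm12946 in the pericyte-labelled cells (0.137, 0.204 and 0.228). Their fitted log2 fold changes were 2.81, 2.88 and 3.94 in the retina, where Atf3 had 2.54. In the pericyte-labelled cells they were 0.84, 0.80 and 3.99, where Atf3 had 0.94. Atp8b4 and Gm12946 were thus close on the shrunken scale only. Closest to Egr1 were Unc5b, Ces1d and H2afy2 in the retina (0.293, 0.323 and 0.323) and Tmem28, Rpl24 and Gm6977 in the pericyte-labelled cells (0.156, 0.332 and 0.339). Their log2 fold changes were -0.12, -0.17 and -0.28 in the retina, where Egr1 had -0.26. In the pericyte-labelled cells they were 0.63, 0.62 and 1.21, where Egr1 had 0.33, and none of these neighbours was called. Klf6 and Klf4 are themselves in the list of other immediate early genes.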

How the data were processed

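The authors deposited 2 tables of raw read counts per gene, and per the submitters' processing notes reads were handled with FastQC 0.11.8, HISAT2 2.0.5, featureCounts 1.5.0-p3 and limma. Genome build, annotation and strand use are not given in the sources used here, so reads from overlapping genes on opposite strands cannot be told apart. Retina columns were mapped to groups by inference from short names and carry no sample number, so library numbers there are column numbers. Pericyte columns were mapped by sample description. No 2 libraries of a group were copies (chi-squared per degree of freedom of at least 5.87).

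Each table was fitted alone in R 4.3.3 with edgeR 4.0.16: filterByExpr with minimum count 10, TMM, robust quasi-likelihood F test of vesicles minus PBS, 2-sided, Benjamini-Hochberg over all genes tested. SE is the size of the log2 value over the root of its F. The difference between tables was fitted with limma 3.58.1 (voom with a weight per table). With 3 libraries a group, exact permutation cannot reach below p = 0.1, so none is given. Alternatives included DESeq2 1.42.0. The methods were also run on simulated counts, whose outcome is not given here. These were drawn independently for each gene and library, so patterns that genes share over libraries were not covered. Exon lengths are unions of GENCODE M21 exons, matched by gene ID, and may differ from those the authors counted over. Counting intervals cover counting error only. The members and gene lists were chosen with earlier results of these data known. Named genes are the 10 members, up to 4 of each list in order of p, not all of which are reported here, and the 3 nearest profiles of Atf3 and Egr1, and other genes named by level alone are from marker lists. The series text also describes knockdowns in another line, which match none of the samples.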

Additional observations from a re-analysis of the deposited data

Results flagged for a closer look

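The vesicle effect differed between retina and pericyte-labelled cells for 3 members, by limma over the 13712 genes that both tables shared in the tests. The retina effect minus the pericyte effect on the log2 scale was 1.59 for Atf3, 1.52 for Junb and 2.16 for Fosl2. In the retina vesicle libraries were above PBS libraries for each of these genes in all 3 libraries, and the same held in the pericyte-labelled cells, so the effects differed in size and not in direction. Over all alternatives the adjusted p of the difference ran from 7.9e-05 to 0.0091 for Atf3, from 7.6e-05 to 0.016 for Junb and from 0.0021 to 0.070 for Fosl2.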

How the results depend on the processing

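The count of members called was 4 or 5 in the retina over 13 alternatives, with 0 lower in each, and 6 to 8 in the pericyte-labelled cells over 14. Fosb, Jun, Junb and Atf3 in the retina, and Fosl1, Fosl2, Jun, Jund, Atf3 and Nr4a2 in the pericyte-labelled cells, passed the threshold in every alternative run. Over single left-out libraries, called genes in the retina ranged from 1328 to 2909 (higher 1048 to 2010, lower 277 to 899), called-lower genes in the pericyte table from 993 to 1573, and genes with differing effects from 949 to 2126. Without the lens-richest libraries 1420 retina genes were called (1058 higher, 362 lower), and without both pericyte libraries numbered 3, chosen after seeing the data, 2088 (1223 and 865), fits with fewer samples. Fold changes not called that turned sign when a library was left out were Fos (-0.48 to 0.12), Fosb (-0.50 to 0.26) and Hspe1 (-0.0076 to 0.17) in the pericyte table and Unc5b (-0.41 to 0.13) and Ces1d (-0.70 to 0.20) in the retina, and the cause was not tested. Over all genes tested in the pericyte table, deviations of same-numbered libraries correlated at 0.018, 0.027 and -0.024. Not every library correlated best with its own number. With the number as a replicate block 8 members were called, adding Egr1 (log2 fold change 0.32, adjusted p = 0.00059). Other immediate early genes called higher were 18 in place of 10, and 3287 genes (19.4%) were called in place of 3365. The block lowered the SE from 0.37 to 0.062 for Fos, from 0.53 to 0.11 for Fosb and from 0.34 to 0.063 for Egr1. That of Jund went from 0.064 to 0.069. Whether same-numbered libraries share a culture or batch is not stated and was not tested. No paired analysis was possible in the retina because its columns carry no sample number. Low counts limit Fosl1 in the retina, where 10 reads were counted over 6 libraries.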

Other observations

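Nerve injury and heat shock genes, which often accompany Jun and Atf3 after damage or handling, showed mixed values. Of 10 tested nerve injury genes in the retina, Gap43, a growth cone protein, and Klf6 were higher. Trib3 was lower, a call lost without any 1 of the 6 libraries. Of all genes tested there, 10.7% were higher and 5.19% lower. Gap43 averaged 92.0 ± 5.69 CPM with vesicles and 57.6 ± 2.99 CPM with PBS (log2 fold change 0.67 ± 0.09, adjusted p = 0.0014), while Sox11, a factor of injured and growing neurons, averaged 3.37 ± 0.526 CPM and 1.96 ± 0.122 CPM and was not called (adjusted p = 0.090). In the pericyte-labelled cells 2 of 9 tested were higher and 1 lower, against 10.9% and 8.9% of all genes tested. Gadd45a, a DNA damage response gene, averaged 40.4 ± 1.21 CPM with vesicles and 18.2 ± 1.57 CPM with PBS (log2 fold change 1.15 ± 0.08, adjusted p = 1.4e-09). The other higher gene was Klf6, which is also in the list of other immediate early genes (log2 fold change 0.84 ± 0.08, adjusted p = 5.3e-08). Sox11 was lower (log2 fold change -0.42 ± 0.12, adjusted p = 0.012). Leaving out vesicle library 2 or PBS library 1 ended the Sox11 call.

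Of 9 heat shock genes in the retina, Dnajb1, Hsph1 and Hspe1 were higher and Hspa1a was lower, against 10.7% and 5.19% of all genes tested. Dnajb1 lost its call without the lens-richest libraries (adjusted p = 0.053). Hspa1a averaged 18.1 ± 1.05 CPM with vesicles and 24.7 ± 1.63 CPM with PBS, and its call was lost without any 1 of the other 5 libraries, PBS library 1 being the exception (adjusted p from 0.060 to 0.14), and without the lens-richest libraries. Hsph1 and Hspe1 lost theirs without vesicle library 1 or 2 or PBS library 2, and without the lens-richest libraries. In the pericyte-labelled cells 1 of 9 was called, Hspb1, against 19.8% of all genes tested. Hspb1 averaged 51.8 ± 0.647 CPM with vesicles and 42.8 ± 2.91 CPM with PBS (log2 fold change 0.27 ± 0.07, adjusted p = 0.0074), and it lost the call without PBS library 2 (adjusted p = 0.078).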
